A study of Rattus norvegicus with 8 samples.

Results

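Astrocyte homeostatic genes, 9 in the list, encode proteins by which resting astrocytes keep the surroundings of neurons stable. The members were Aqp4, Aldh1l1, S100b, Glul, Slc4a4, Sox9, Ndrg2, Fabp7 and Kcnj10, taken by name. A member was measured where a probe set carried its symbol alone, and 7 of the 9 were matched, each by 1 probe set, among 14506 genes in all. Glul and Sox9 had no match and were not analysed here.

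The arrays held dorsal ipsilateral cord of adult male Wistar rats, dissected at segments L4 to L6 on day 14 after transection of the L5 spinal nerve. All animals had the nerve injury and an intrathecal catheter fed by an osmotic pump. In 4 HDACI-treated rats the pump delivered 30 nmol/d of MS-275, which blocks class I histone deacetylases, and in 4 vehicle-treated rats it carried the solvent, dimethyl sulfoxide in saline. The groups rest on the sample titles, because the treatment text deposited with the samples is the same for all 8 and names only the drug. No uninjured or untreated cord was part of the comparison, so every value below is of injured cord with drug against injured cord with solvent. Signals are log2 values after RMA (robust multiarray average), which corrects background, gives all arrays 1 distribution and summarises a probe set. They are relative, so a difference of 1 is a doubling of signal, array medians lay between 7.95 and 7.98, and levels of different genes are not compared.

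Astrocytes tile the spinal gray and white matter and take up what active neurons release, chiefly potassium and glutamate. Their end-feet on blood vessels carry dense arrays of the water channel aquaporin-4 and of the inwardly rectifying potassium channel Kir4.1. Bicarbonate cotransport holds pH, folate enzymes and lipid carriers belong to their metabolic side, and after nerve injury astrocytes of the dorsal horn are known to become reactive and to raise the filament protein GFAP. Histone deacetylases remove acetyl groups from histones, which generally goes with closed chromatin.

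Promoter sequence, the 250 bases before an annotated transcript start, is shown so that its composition can be read beside the signals. It is given for the 3 members with the smallest p values in the comparison below, Fabp7, Kcnj10 and Aqp4. The sequences are from RefSeq on the rat assembly GRCr8, written 5′ to 3′ on the strand of the gene. Capitals mark matches, on either strand, to the SOX cores ACAAAG and ACAATG, the STAT site TTCNNNGAA, the GC box GGGCGG, the TATA box TATAAA or the palindrome bound by NFI factors. Aqp4 has 2 windows, each before a different start. A start used here need not be the outermost of its gene. The annotated extent of Fabp7 begins at base 37667125, before its window. That of Aqp4 begins at base 6799034, inside its upstream window. The windows of Slc4a4 and Ndrg2 also lie inside their genes.
Fabp7, chr20:37669356-37669605, plus strand: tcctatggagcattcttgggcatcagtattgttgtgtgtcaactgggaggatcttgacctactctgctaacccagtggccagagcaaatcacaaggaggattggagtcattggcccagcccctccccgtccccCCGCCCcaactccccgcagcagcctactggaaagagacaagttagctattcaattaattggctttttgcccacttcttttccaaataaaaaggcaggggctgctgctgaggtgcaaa
Kcnj10, chr13:87334260-87334509, plus strand: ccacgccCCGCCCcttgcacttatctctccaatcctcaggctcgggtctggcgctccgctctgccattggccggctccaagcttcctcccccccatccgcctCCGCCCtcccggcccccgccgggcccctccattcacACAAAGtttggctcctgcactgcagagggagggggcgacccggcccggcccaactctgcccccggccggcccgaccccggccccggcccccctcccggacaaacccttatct
Aqp4, upstream start, chr18:6798843-6799092, minus strand: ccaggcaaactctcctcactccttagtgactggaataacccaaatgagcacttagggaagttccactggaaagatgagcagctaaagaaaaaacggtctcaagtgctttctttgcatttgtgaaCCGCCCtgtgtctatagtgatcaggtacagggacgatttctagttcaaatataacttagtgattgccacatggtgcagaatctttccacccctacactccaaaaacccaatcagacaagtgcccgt
Aqp4, downstream start, chr18:6797927-6798176, minus strand: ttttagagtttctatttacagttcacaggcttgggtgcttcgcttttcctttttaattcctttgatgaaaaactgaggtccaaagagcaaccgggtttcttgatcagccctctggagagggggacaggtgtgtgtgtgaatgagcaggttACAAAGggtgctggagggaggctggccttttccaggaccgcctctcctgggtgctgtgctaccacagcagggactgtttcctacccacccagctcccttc

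All 7 members had at least 1 window, 9 windows in all. The GC box stood in 6 of the 9 windows, from 5 members, against 30.5% of 33465 promoter windows of the same length. ACAAAG stood in 2 windows, 1 of Kcnj10 at bases 112 to 107 before the start and 1 of Aqp4 at bases 100 to 95, against 16.3% of all windows. The other SOX core, the STAT site and the NFI palindrome had no match in a member window and stood in 11.1%, 7.67% and 0.0359% of all windows. A TATA box was found in 1 window of Ndrg2 (12.9% of all windows), on the reverse strand. Base composition varied widely among members, with a G and C content from 44.8% in the upstream window of Aqp4 to 80.8% in that of Slc4a4 and a median of 60.8%, against 51.2% over all windows. CpG pairs ran from 3 to 42 in a member window. These matches are a description of letters, and no binding was measured.

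Some arrays stood apart in markers of neighbouring tissue. Meningeal and blood markers read highest on HDACI replicate 2, motor neuron markers on vehicle replicates 1 and 2, and Schwann cell markers on all 3, and results without these 3 arrays are given with the marker lists.

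No astrocyte homeostatic gene passed the test between HDACI and vehicle. All 7 had a log2 fold change above 0, from 0.01 for Slc4a4 to 0.23 for Fabp7, with a median of 0.05. None of the 7 had an adjusted p under 0.05 in limma, the same as over all 14506 genes (0%). None had an unadjusted p under 0.01, which the study used as a permissive threshold beside a corrected p under 0.05. It was passed by 1.46% of all genes, 0.607% higher and 0.855% lower, or 88 and 124 genes. These counts were 148 and 100 after further quantile normalization and 122 and 82 with centring on array medians. The study tested all probe sets, with or without a symbol, so its own counts differ. At an unadjusted p under 0.05 there was 1 member, Fabp7, where 7.75% of all genes passed. Over all genes 42.1% had a log2 fold change above 0 and the median was -0.01, so the members' median lay 0.07 above it. The members were measured on the same 8 arrays, from the same tissue samples, so 7 of 7 is not 7 separate observations. In bulk tissue, a difference in the number of astrocytes and a difference in RNA per astrocyte cannot be told apart, in either direction. The groups overlapped in all 7 members, whereas over all genes 1.42% lay higher on every HDACI array and 3.6% lower, 5.02% in all.

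**Figure D1:**
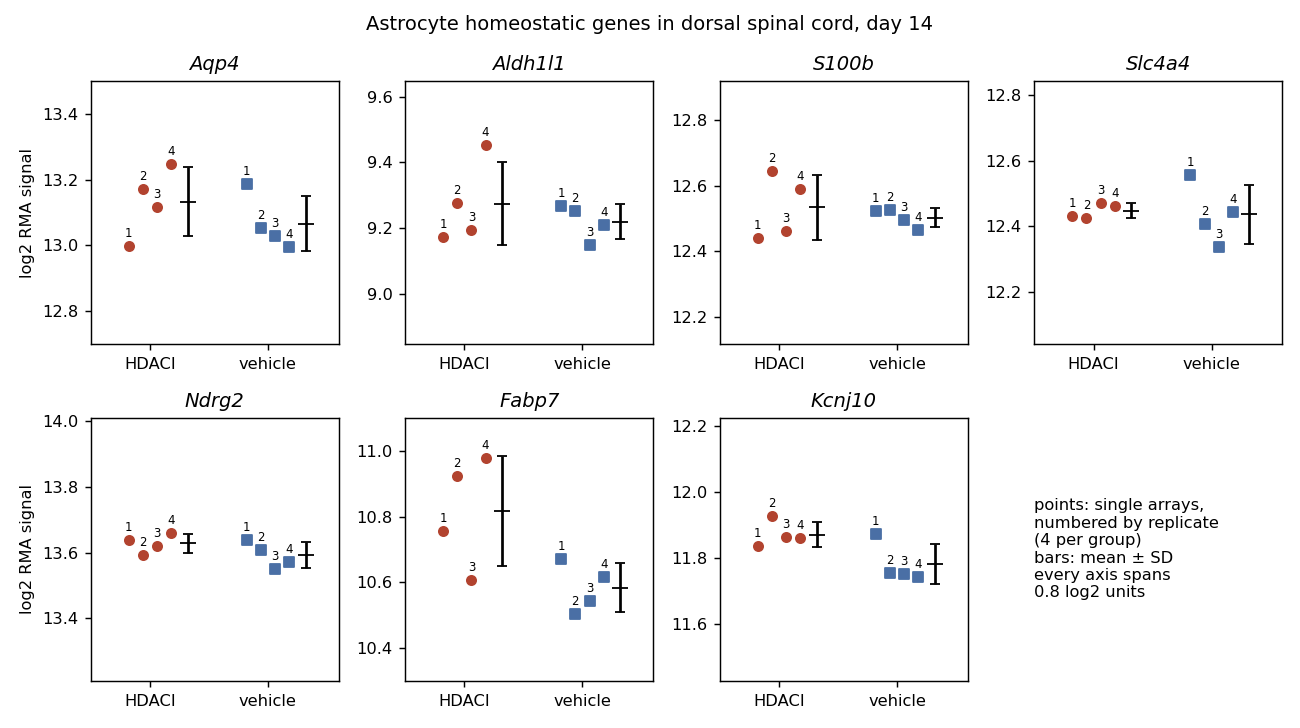
Log2 RMA signal of the 7 measured members on each array, with HDACI arrays as circles and vehicle arrays as squares, numbered by replicate, and mean ± SD of 4 arrays beside them. The vertical axes all have the same span, and the groups overlap in every panel. In Fabp7, 3 of 4 HDACI arrays lie above all vehicle arrays.

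Aqp4 encodes aquaporin-4, the main water channel of the central nervous system. Its log2 signal was 12.997, 13.17, 13.12 and 13.25 on the 4 HDACI arrays and 13.19, 13.05, 13.03 and 12.995 on the 4 vehicle arrays. HDACI replicate 1 read as low as the lowest vehicle array and vehicle replicate 1 above 3 of the 4 HDACI arrays. HDACI minus vehicle came to 0.07 in log2 units, with a 95% interval of -0.08 to 0.21 and a standard error of 0.06 (limma, adjusted p = 0.837; exact permutation p = 0.343). Without HDACI replicate 4 it was 0.03 and without HDACI replicate 1 it was 0.11.

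Kcnj10 encodes Kir4.1, the channel through which astrocytes, and also oligodendrocytes, buffer extracellular potassium. Its log2 signal was 11.84, 11.93, 11.86 and 11.86 with HDACI and 11.87, 11.76, 11.75 and 11.74 with vehicle. All HDACI arrays lay above 3 vehicle arrays, and vehicle replicate 1 lay inside the HDACI range. HDACI minus vehicle came to 0.09 in log2 units, with a 95% interval of -0.01 to 0.19 and a standard error of 0.04 (limma, adjusted p = 0.670; exact permutation p = 0.114). Without vehicle replicate 1 it was 0.12, with an unadjusted p of 0.0228 and an adjusted p of 0.667 from limma.

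Slc4a4 encodes NBCe1, the sodium bicarbonate cotransporter that carries base across the astrocyte membrane. It read 12.43, 12.43, 12.47 and 12.46 with HDACI and 12.56, 12.41, 12.34 and 12.44 with vehicle. The HDACI arrays were closer together (SD 0.02, n = 4) than the vehicle arrays (SD 0.09, n = 4), whose range enclosed all of them. The difference of 0.01 in log2 units, with a 95% interval of -0.10 to 0.12 and a standard error of 0.05 (limma, adjusted p = 0.974; exact permutation p = 0.8) took the other sign, -0.02, without vehicle replicate 3.

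Aldh1l1 encodes the cytosolic 10-formyltetrahydrofolate dehydrogenase, a folate enzyme widely used to mark astrocytes. Its log2 signal was 9.17, 9.28, 9.19 and 9.45 with HDACI and 9.27, 9.25, 9.15 and 9.21 with vehicle. HDACI replicate 4 stood above all other arrays, HDACI replicate 2 lay just above the highest vehicle array, and the other 2 lay within the vehicle range. HDACI minus vehicle came to 0.05 in log2 units, with a 95% interval of -0.09 to 0.20 and a standard error of 0.06 (limma, adjusted p = 0.876; exact permutation p = 0.543), and without HDACI replicate 4 it was -0.00467.

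Fabp7 encodes the brain fatty acid binding protein, a carrier of long-chain fatty acids in radial glia and astrocytes. Its log2 signal was 10.76, 10.92, 10.61 and 10.98 with HDACI and 10.67, 10.50, 10.54 and 10.62 with vehicle. HDACI replicates 1, 2 and 4 lay above every vehicle array, and HDACI replicate 3 lay within the vehicle range. It had the largest difference of the members, a log2 fold change of 0.23 (1.18-fold, standard error 0.08, 95% confidence interval 0.05 to 0.42). This difference had an unadjusted p of 0.0180 and an adjusted p of 0.610 from limma, with an exact permutation p of 0.0857. The smallest exact two-sided p that 4 against 4 arrays allow is 0.0286. Fabp7 also varied most among HDACI arrays, with an SD of 0.17, against 0.07 on vehicle arrays (n = 4 each). Without HDACI replicate 3 the log2 fold change was 0.30 and the unadjusted p 0.00200 (adjusted p = 0.722 from limma), and without HDACI replicate 4 they were 0.18 and 0.0533.

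S100b encodes a calcium-binding protein of astrocytes and of some oligodendrocyte lineage cells. It read 12.44, 12.64, 12.46 and 12.59 with HDACI and 12.52, 12.53, 12.49 and 12.46 with vehicle. HDACI replicates 2 and 4 lay above all vehicle arrays, and HDACI replicates 1 and 3 lay below all of them. HDACI minus vehicle came to 0.03 in log2 units, with a 95% interval of -0.09 to 0.15 and a standard error of 0.05 (limma, adjusted p = 0.922; exact permutation p = 0.514) and -0.00525 without HDACI replicate 2.

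Ndrg2 encodes a cytosolic protein of the NDRG family that in the brain is found mainly in astrocytes. It was the steadiest member, at 13.64, 13.59, 13.62 and 13.66 with HDACI and 13.64, 13.61, 13.55 and 13.57 with vehicle. Its whole range over the 8 arrays was 0.11, against a median range of 0.27 over all genes. HDACI replicate 4 was the only HDACI array above all vehicle arrays. HDACI minus vehicle came to 0.04 in log2 units, with a 95% interval of -0.05 to 0.12 and a standard error of 0.04 (limma, adjusted p = 0.863; exact permutation p = 0.200).

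**Figure D2:**
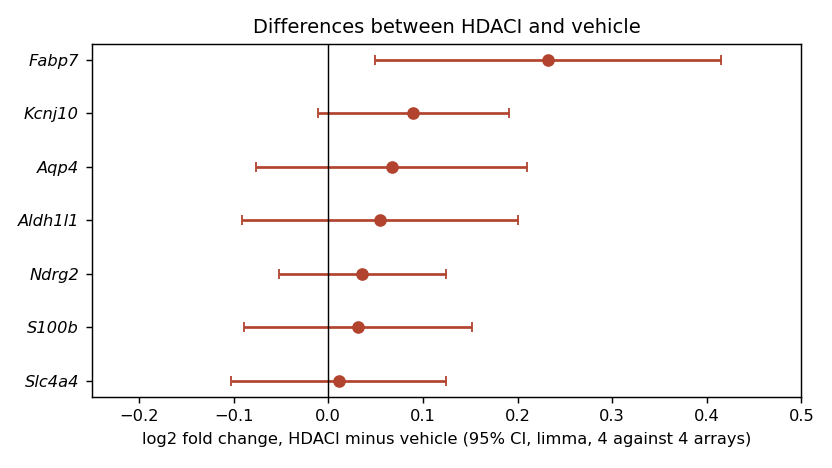
Log2 fold change, HDACI minus vehicle, of the 7 members from limma with 4 against 4 arrays, with 95% confidence intervals that are not adjusted for the number of genes. All 7 points lie above 0, and the interval of Fabp7, 0.05 to 0.42, is the only one that does not cross 0.

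Apart from Fabp7, the upper ends of the intervals ran from 0.12 to 0.21, or 1.09-fold to 1.16-fold, and the lower ends from -0.10 to -0.01, or 0.931-fold to 0.992-fold. These intervals bound the differences that 8 arrays leave possible for each of these genes taken alone.

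The members tended to lie above or below their own means on the same arrays. With each member set to its own mean over the 8 arrays, their mean was -0.02, 0.07, -0.02 and 0.12 on HDACI arrays and 0.04, -0.05, -0.08 and -0.06 on vehicle arrays. On HDACI replicate 4 all 7 members lay above their own mean and on vehicle replicate 3 none did. Vehicle replicate 1 had 6 of 7 above, and HDACI replicates 1 and 3 had 3 and 4. Over the 21 pairs of members, all Pearson correlations across the 8 arrays were above 0, from 0.05 to 0.82 with a median of 0.58, and Spearman correlations ran from -0.17 to 0.81 with a median of 0.50. The closest pair by r was Aqp4 with Aldh1l1 (r = 0.82, exact permutation p = 0.00982, adjusted p = 0.206 over 21 pairs; rho = 0.76, exact permutation p = 0.0368, adjusted p = 0.257). No pair passed adjustment by either measure, and correlations among other sets of genes were not computed for comparison. After removal of the group means all 21 correlations were still above 0, with a median of 0.55. Without the 2 arrays farthest from the median of the first gene of a pair, 17 of 21 were above 0 with a median of 0.27. Leaving out the outermost arrays narrows the range of that gene, which by itself tends to lower r. The drop therefore cannot tell how far the relation rests on those arrays. All members of an array share its RNA, its hybridization and its normalization.

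Of all other genes with 1 symbol, the 5 whose profile over the 8 arrays was most like the members' mean were Gfap (r = 0.97), Apoe (0.97), C1ql1 (0.96), Gna12 (0.95) and Cyp7b1 (0.95). They were picked for this likeness out of all genes, so these correlations carry no test. Gfap encodes the intermediate filament protein of astrocytes and Apoe the lipid carrier apolipoprotein E, which in the nervous system comes mainly from astrocytes and microglia. Set to its own mean, Gfap stood at -0.03, 0.23, -0.10 and 0.22 on HDACI arrays and 0.09, -0.08, -0.18 and -0.15 on vehicle arrays. It was above its mean on the same 3 arrays as the members' mean, HDACI replicates 2 and 4 and vehicle replicate 1, over a range of 0.41, wider than that of 6 of the 7. Its log2 fold change between HDACI and vehicle was 0.16 (standard error 0.09, adjusted p = 0.696 from limma) and that of Apoe 0.10 (standard error 0.05, adjusted p = 0.673). Of the 5, only Gfap was in a gene list used here. The list means of oligodendrocyte precursors and of oligodendrocytes were also highest on HDACI replicates 2 and 4 and vehicle replicate 1. The pattern is thus not particular to astrocyte genes.

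**Figure D3:**
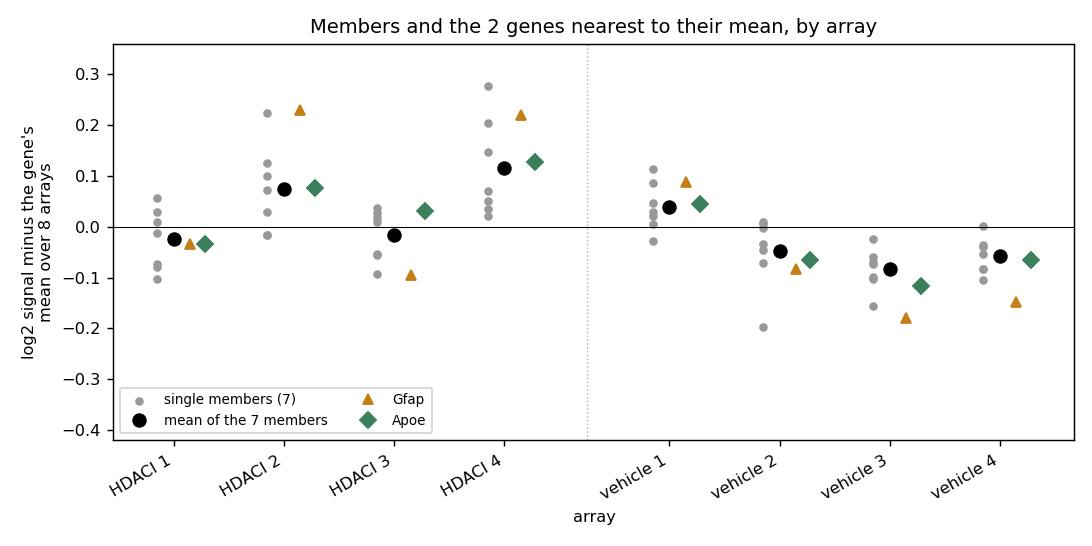
Log2 signal of each gene minus its mean over the 8 arrays, by array, for the 7 members (small gray points), their mean (black) and Gfap and Apoe, offset sideways for clarity. The members' mean, Gfap and Apoe each have their highest values on HDACI replicates 2 and 4 and their lowest on vehicle replicate 3.

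Of 27 other astrocyte genes listed, 23 were measured and none passed either threshold, with 17 log2 fold changes above 0, a median of 0.03 and a range from -0.11 to 0.19. Closest to the threshold were the urea transporter Slc14a1 (0.19, standard error 0.08, unadjusted p = 0.0369) and the cystathionine synthase Cbs (0.13, standard error 0.06, unadjusted p = 0.0630), both with overlapping groups. The list mean was 11.32, 11.32, 11.31 and 11.31 on HDACI arrays and 11.32, 11.32, 11.23 and 11.27 on vehicle arrays, lowest on vehicle replicate 3, as for the members, whereas HDACI replicate 4, the highest array for the members, did not stand out. Among reactive astrocyte genes, 20 of 21 were measured, 13 lay above 0 and the median was 0.09, which was -0.05 without HDACI replicate 2. The other 7 lay below 0, and the lowest was Serpina3n at -1.17 (standard error 0.85, adjusted p = 0.764 from limma). Only the copper-carrying ferroxidase Cp passed the unadjusted threshold, higher with HDACI, and it did not pass adjustment (log2 fold change 0.86, standard error 0.13, unadjusted p = 1.07e-04, adjusted p = 0.610), with no overlap between the groups. The reactive list mean ran from 8.46 to 9.14 with HDACI and from 8.36 to 8.98 with vehicle, highest on HDACI replicate 2.

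No partner of the members in their tasks passed either threshold. In the dystrophin complex that anchors aquaporin-4 at end-feet, 6 of 10 genes were measured, none passed and the median was -0.01, with dystrophin itself (Dmd) at -0.04 and Sgcd at -0.08. Of 12 measured genes of potassium and water handling none passed (median 0.02), with the potassium channel Kcnk10 at -0.13 and the aquaglyceroporin Aqp9 at -0.18. Of 11 for bicarbonate and pH none passed (median 0.001), with Slc4a8 at -0.11 and carbonic anhydrase Car2 at 0.09. Glutamate and glutamine handling, the task of the unmeasured Glul, had 13 measured genes with 8 below 0 and a median of -0.07. None of them passed, though the transaminase Got1 (-0.14, unadjusted p = 0.0174) was lower on every HDACI array than on any vehicle array, and the glutamine transporter Slc38a5 stood at 0.32 (unadjusted p = 0.0814). That median was -0.01 without HDACI replicate 2 and 0.005 without 3 arrays, HDACI replicate 2 and vehicle replicates 1 and 2. Of 11 measured one-carbon folate enzymes, partners of Aldh1l1, 8 lay below 0 and none passed (median -0.03), with Mthfd2 at -0.13 and Shmt2 at -0.12.

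Relatives of the members by sequence family included 1 gene higher and 1 lower at the unadjusted threshold, neither of which passed adjustment. Of 12 measured S100 genes, 7 lay above the 25th percentile of signal, and the other 5 were too dim for their differences to be read. S100a1, a bright one, was higher with HDACI at an unadjusted p under 0.01 (log2 fold change 0.21, standard error 0.06, unadjusted p = 0.00718, adjusted p = 0.610 from limma). Its values were 12.15, 12.30, 12.26 and 12.33 on HDACI arrays and 12.20, 12.01, 12.01 and 11.97 on vehicle arrays. The groups overlapped only through HDACI replicate 1 and vehicle replicate 1. Of the 3 other genes of the Ndrg family, Ndrg3 was lower (-0.15, standard error 0.04, unadjusted p = 0.00432, adjusted p = 0.610 from limma), at 10.92, 10.84, 10.90 and 10.94 with HDACI and 11.01, 11.05, 11.08 and 11.05 with vehicle, without overlap. Whether S100a1 differed from S100b, or Ndrg3 from Ndrg2, in its response was not tested. None of 11 relatives of Fabp7 among lipid and retinoid carriers passed, but only 3 of them lay above the 25th percentile of signal, with a median of -0.007. The other 8, Fabp4 (-0.06) and Fabp9 (-0.10) among them, were too dim for their differences to be read. Among 16 transcription factors of gliogenesis, the group to which the unmeasured Sox9 belongs, 12 lay above 0 with a median of 0.05. Id3, an inhibitor of helix-loop-helix factors, was the only one past the unadjusted threshold (0.33, standard error 0.08, unadjusted p = 0.00371, adjusted p = 0.610 from limma).

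Markers of other cells in the tissue differed between arrays, in part more than the members did. Markers of motor neurons, which lie in the ventral horn, had a list mean of 8.18, 8.92, 8.87 and 7.99 on HDACI arrays and 9.62, 10.19, 8.34 and 8.98 on vehicle arrays. All 6 measured had a log2 fold change below 0, with a median of -0.84, which was -0.49 without vehicle replicate 2 and -0.24 without the 3 arrays named above. None passed, the choline transporter Slc5a7 at -0.75 (unadjusted p = 0.0368) and Isl1, a dim probe set below the 25th percentile of signal, at -0.23 (unadjusted p = 0.0436) being closest. Of 10 measured dorsal horn genes 9 lay above 0 and none passed (median 0.18), with Grp at 0.20 and Nts at 0.26. Their list mean ran from 9.97 to 10.40 with HDACI and from 9.999 to 10.12 with vehicle. It was highest on HDACI replicate 4, the array that was also highest for the members. But it was lowest on HDACI replicate 2 and next lowest on vehicle replicate 1, both arrays on which the members' centred mean lay above 0. Of 14 pan-neuronal genes 13 lay below 0 and none passed (median -0.07), with Nefl at -0.12 and Nefm at -0.25.

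Oligodendrocyte genes, of interest because Kcnj10 and S100b are also expressed there, had a median of 0.009 over 10 measured, 5 above 0 and none past either threshold (-0.02 without HDACI replicate 2), with Mbp at 0.05 and Ugt8 at -0.07. Their list mean was 12.30, 12.47, 12.29 and 12.39 with HDACI and 12.45, 12.36, 12.36 and 12.27 with vehicle. All 6 measured genes of oligodendrocyte precursors lay above 0 and none passed (median 0.10), with Cacng4 at 0.27 without overlap and Pdgfra at 0.17. The precursor list mean was 10.11, 10.32, 10.19 and 10.32 with HDACI and 10.23, 10.14, 10.11 and 10.02 with vehicle. Of 14 genes of microglia and macrophages 13 lay above 0 and none passed (median 0.14), with Cd68 at 0.30 and C1qc at 0.40. Endothelial and mural genes had a median of 0.10 over 12 (0.03 without HDACI replicate 2), with desmin (Des, 0.67, unadjusted p = 1.32e-04, adjusted p = 0.610) as the only one past the unadjusted threshold. Meningeal fibroblast genes had a median of 0.22 over 12, which was -0.04 without HDACI replicate 2, and Slco2a1 (0.89, unadjusted p = 0.00249) and Bgn (0.66, unadjusted p = 0.00404) passed the unadjusted threshold, each with an adjusted p of 0.610 from limma. Their list mean was highest on HDACI replicate 2, at 9.53, while HDACI replicates 1, 3 and 4 ran between 8.42 and 8.76 and the vehicle arrays between 8.43 and 8.93. None of 7 ependymal (median -0.02, Hydin -0.22, Spag6 0.04), 6 Schwann cell (median -0.07, Egr2 -0.13, Prx -0.12) or 3 blood genes (median 0.28, Alas2 0.28, Hbb 0.52) passed, Spag6 and Alas2 being dim as well. Rsph1 of the ependymal and Slc4a1 of the blood genes were also dim. The ependymal and blood medians were themselves the values of dim genes, Rsph1 and Alas2. The blood median was -0.04 without HDACI replicate 2. The Schwann cell median was -0.31 without HDACI replicate 2, 0.14 without vehicle replicate 2 and 0.23 without the 3 arrays, so it has no settled sign. Schwann cell markers, which peripheral nerve roots carry, averaged 8.85 to 10.17 with HDACI and 8.80 to 10.18 with vehicle, highest on replicate 2 of both groups. In bulk RNA, tissue makeup and RNA per cell cannot be told apart as sources of these marker differences. Their part in the members' values was not tested. Without HDACI replicate 2 and vehicle replicates 1 and 2 together, a choice made after seeing these lists, all 7 members again lay above 0, from 0.02 for S100b to 0.20 for Fabp7, and none passed.

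**Figure D4:**
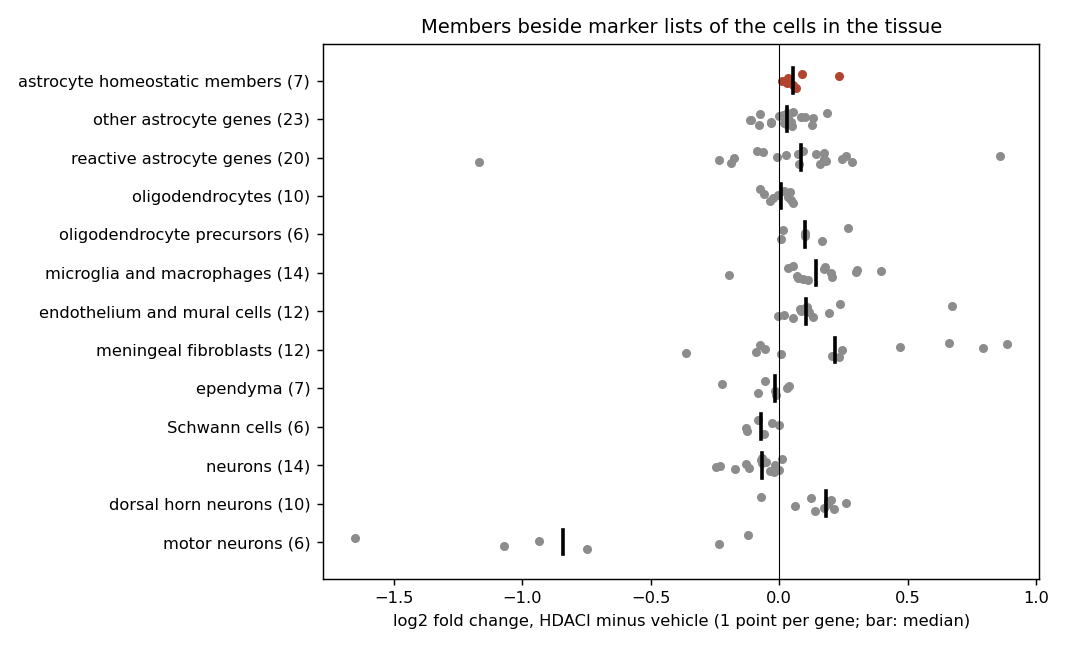
Log2 fold change, HDACI minus vehicle, of each measured gene in the member list (red) and in lists of other genes, mostly cell markers, with the number of measured genes in brackets and black bars at the medians. The 7 members lie between 0.01 and 0.23, while motor neuron genes reach -1.65, reactive astrocyte genes -1.17 and meningeal fibroblast genes 0.89.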

How the data were processed

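Total RNA of 8 samples, 4 HDACI and 4 vehicle, was hybridized to Affymetrix Rat Gene 1.0 ST arrays. The deposited values are log2 signals that the authors made with RMA in the R package oligo. No oligo version is given in the sources used here. Per the paper's methods the arrays were biological replicates, and titles gave groups and replicate numbers. No column of the table was left unmapped.

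The platform annotation gave 1 symbol for 15310 of 29214 probe sets and several for 323, and did not list 13581. Symbols were updated by Entrez number through a RefSeq table (GRCr8), which matched 15279 probe sets. A gene's value was the mean of its probe sets, giving 14506 genes. HDACI was compared with vehicle in limma 3.58.1 (lmFit, then eBayes; R 4.3.3), without filter, block or weights, and two-sided p values were adjusted across all genes by Benjamini-Hochberg. Residual degrees of freedom were 6, and eBayes added 3.36. Exact permutation tests over the 70 assignments of arrays and over all pairings were two-sided. The number of arrays limits the precision. Scripts were tested on simulated data.

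The members and all 22 gene lists were chosen with earlier results of these data known. All members were named, and in each list the genes past a threshold or, failing any, the 2 with the smallest p. Alternatives were trend and robust eBayes, no moderation, filters on dim genes, further quantile normalization, centring on array medians, the brightest probe set per gene, the fit over all probe sets, array weights, the replicate number as a block and each array left out.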

Additional observations from a re-analysis of the deposited data

Results flagged for a closer look

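In 58 groups of 4 arrays (7 members and 22 list means, HDACI and vehicle), a single array stood apart from the other 3 in 3 groups, where about 1 in 20 would by chance (2.9). For Kcnj10, vehicle replicate 1 read 11.87, against 11.74 to 11.76 on the other vehicle arrays. For the mean of glutamate and glutamine handling genes, vehicle replicate 2 read 10.94, against 10.88 to 10.89. For the mean of the other Ndrg genes, HDACI replicate 1 read 11.82, against 11.92 to 11.93. The causes were not tested.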

How the results depend on the processing

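No alternative gave a member an adjusted p under 0.05. The count of members with an unadjusted p under 0.01 in limma was 0 in all alternatives but a pair, each with 1 member, Fabp7: after further quantile normalization (0.25, unadjusted p = 0.00994, adjusted p = 0.560) and without HDACI replicate 3, and leaving out each array it ran from 0 to 1. Leaving out 1 array turned the sign of S100b (-0.00525 without HDACI replicate 2, range -0.00525 to 0.0629), Aldh1l1 (-0.00467 without HDACI replicate 4, range -0.00467 to 0.0881) and Slc4a4 (-0.0217 without vehicle replicate 3, range -0.0217 to 0.0507). The other 130 of 133 member values kept their direction, but many of them could not change. The eBayes options, the filters, the block, the brightest probe set and the fit over all probe sets leave a member's fold change as it is. Whether the replicate numbers pair the arrays is not known. Correlations of deviations between same-numbered arrays were -0.27, 0.36, 0.04 and 0.06, and 1 of 4 HDACI arrays lay closest to its own number. These values carry no test and cannot settle it, because tissue makeup may also enter the deviations. With the replicate number as a block, 0 members passed (Fabp7 0.23, unadjusted p = 0.0175; Kcnj10 0.09, unadjusted p = 0.143), and 187 genes in all had an unadjusted p under 0.01, against 212 without it. Centring on array medians left 122 genes higher and 82 lower at that threshold, further quantile normalization 148 and 100, trend and robust eBayes 107 and 175, no moderation 60 and 193, the block 121 and 66, and the fit as reported 88 and 124. Leaving out each array they ran from 46 to 134 and from 67 to 140, and 2 genes passed adjustment without HDACI replicate 3 and 2 without vehicle replicate 2. Of 395 list medians, 6 moved by more than the SD between arrays, 5 of them that of glutamate and glutamine handling. That SD is large where arrays stand apart, and the median of 10 of 22 lists changed sign without at least 1 array, among them meningeal fibroblasts (-0.04 to 0.38), reactive astrocyte genes (-0.05 to 0.16), blood (-0.04 to 0.48) and Schwann cells (-0.31 to 0.14). The intervals given show how precisely 8 arrays fixed each difference.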
